A study of Mus musculus with 8 samples.

Results

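The AP-1 transcription factor is built from subunits of the Fos, Jun, ATF and Maf families, and the RNA of 10 of its genes was followed in mouse liver: Fos, Fosb, Fosl1, Fosl2, Jun, Junb, Jund, Atf3, Batf and Maff. They were taken by gene symbol from a table of 27110 genes, each symbol matched 1 row, and all 10 passed the filter on low counts that left 16420 genes to test. The set was selected on this same comparison, since Jun, Junb and Fos were known to be low in it. The fold changes and adjusted p-values of the 10 genes are therefore given as a description and are no independent support. RNA of 8 livers was sequenced. The 4 LKO libraries, replicates 3, 4, 12 and 13, are female livers with a liver-restricted deletion of Pkd1l1, a polycystin-family membrane protein. The 4 Fl/Fl libraries are the controls, of which replicates 5, 7 and 9 are female and replicate 10 is male. All 8 carry the label week 7 and the treatment label NT, and the label names hepatocytes and cholangiocytes as the cells. The sources used here give neither the driver of the deletion nor the hour of tissue collection, and they do not say whether animals were littermates. P-values therefore measure the spread between these libraries.

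AP-1 works as a pair of proteins: each subunit has a basic stretch that touches DNA and a leucine zipper that holds its partner. Jun proteins pair with each other or with Fos proteins, and Fos proteins need a Jun partner. Batf pairs with Jun proteins, and Atf3 and the small Maf proteins each pair with some of the subunits. Most of these genes are immediate early genes, switched on within minutes of a growth factor, cytokine or stress by MAP kinases without new protein synthesis, and their short-lived mRNA falls again soon afterwards. In liver, Jun is needed for the development of hepatocytes and for regeneration, and Fos, Jun, Junb and Atf3 RNA rise after partial removal, injury or handling of the organ.

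The libraries held 71491723 to 76622375 counted reads, which sets the floor of detection, taken as 3 reads, at 0.0385 to 0.0428 CPM (reads scaled to library size), a limit that covers counting error only. Mitochondrial genes took 4.84% to 6.47% of reads. Pkd1l1 had 2 reads over the 3 female Fl/Fl libraries, 0 in the male library and 2 over the 4 LKO libraries, so it could not check the genotype labels at this depth. Hepatocyte markers (Alb, Apoa1, Ttr, Serpina1a and Hnf4a) summed to 107700 to 122600 CPM in the female libraries and to 69420 CPM in the male one. Most of each sum was Alb (55810 CPM in the male library), while Apoa1, Serpina1a and Hnf4a were highest in the male library. Cholangiocyte markers (Krt19, Krt7, Epcam, Sox9, Spp1 and Cftr) summed to 40.1 to 58.2 CPM, most of it Spp1 at 33.4 to 48.0 CPM. Such sums do not measure how much RNA the bile duct cells named on the label gave. Because the tissue is bulk liver, fewer cells of a type and less RNA per cell cannot be told apart. The genotype contrast below is that of the 4 LKO against the 3 female Fl/Fl libraries, with the male library held apart by a sex term. Of all tested genes, 0.396% were lower and 1.02% were higher in LKO at an adjusted p under 0.05 (quasi-likelihood F test of edgeR, Benjamini-Hochberg adjusted over 16420 genes).

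Per unit of gene length, the highest group means of AP-1 RNA were those of Jun, Fos, Junb and Atf3 in female Fl/Fl liver and those of Jund and Atf3 in LKO liver, with exceptions in single libraries. In FPKM, the authors' values scaled to gene length and library size (mean ± SD, n = 3), the order in female Fl/Fl was Jun at 143.0 ± 55.2, Fos at 87.1 ± 64.0, Junb at 80.9 ± 8.47, Atf3 at 72.8 ± 28.1 and Jund at 47.6 ± 1.14. Below these stood Maff at 12.5 ± 11.9, Fosb at 9.28 ± 5.69 and Fosl2 at 4.37 ± 5.01 FPKM, then Fosl1 at 0.186 ± 0.0749 and Batf at 0.164 ± 0.0671 FPKM. The spreads of Jun, Fos, Junb and Atf3 overlapped one another and Jund lay within those of Fos and Atf3. The spreads of Maff, Fosb and Fosl2 overlapped too, and so did those of Fosl1 and Batf. In LKO liver (n = 4), Jund led at 47.0 ± 7.48 FPKM, followed by Atf3 at 40.9 ± 23.4, Jun at 27.1 ± 7.86, Junb at 21.96 ± 4.35 and Maff at 17.9 ± 0.952. The spread of Atf3 overlapped those of Jund, Jun, Junb and Maff, and in LKO 3 Atf3 at 74.45 FPKM was above Jund at 56.3 FPKM. Fosb at 3.86 ± 2.03, Fos at 3.53 ± 1.49 and Fosl2 at 2.998 ± 1.14 FPKM were within one another's spread, and Batf at 0.160 ± 0.129 and Fosl1 at 0.0467 ± 0.0249 FPKM were again the lowest. By group mean, Fos stood in the second place of the 10 genes in female Fl/Fl and in the seventh in LKO, while Jund stood in the fifth and the first place at nearly the same level. The place of Fos rests on Fl/Fl 5 and 7, since in Fl/Fl 9 its 13.6 FPKM was below Atf3, Jun, Junb, Jund and Maff (26.1 to 98.1 FPKM). In the male Fl/Fl library the order was Jund at 40.6, Junb at 22.6, Maff at 19.9, Jun at 14.3 and Atf3 at 5.38 FPKM, followed by Fosl2 at 2.38, Fos at 2.12 and Fosb at 0.405 FPKM.

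**Figure D1:**
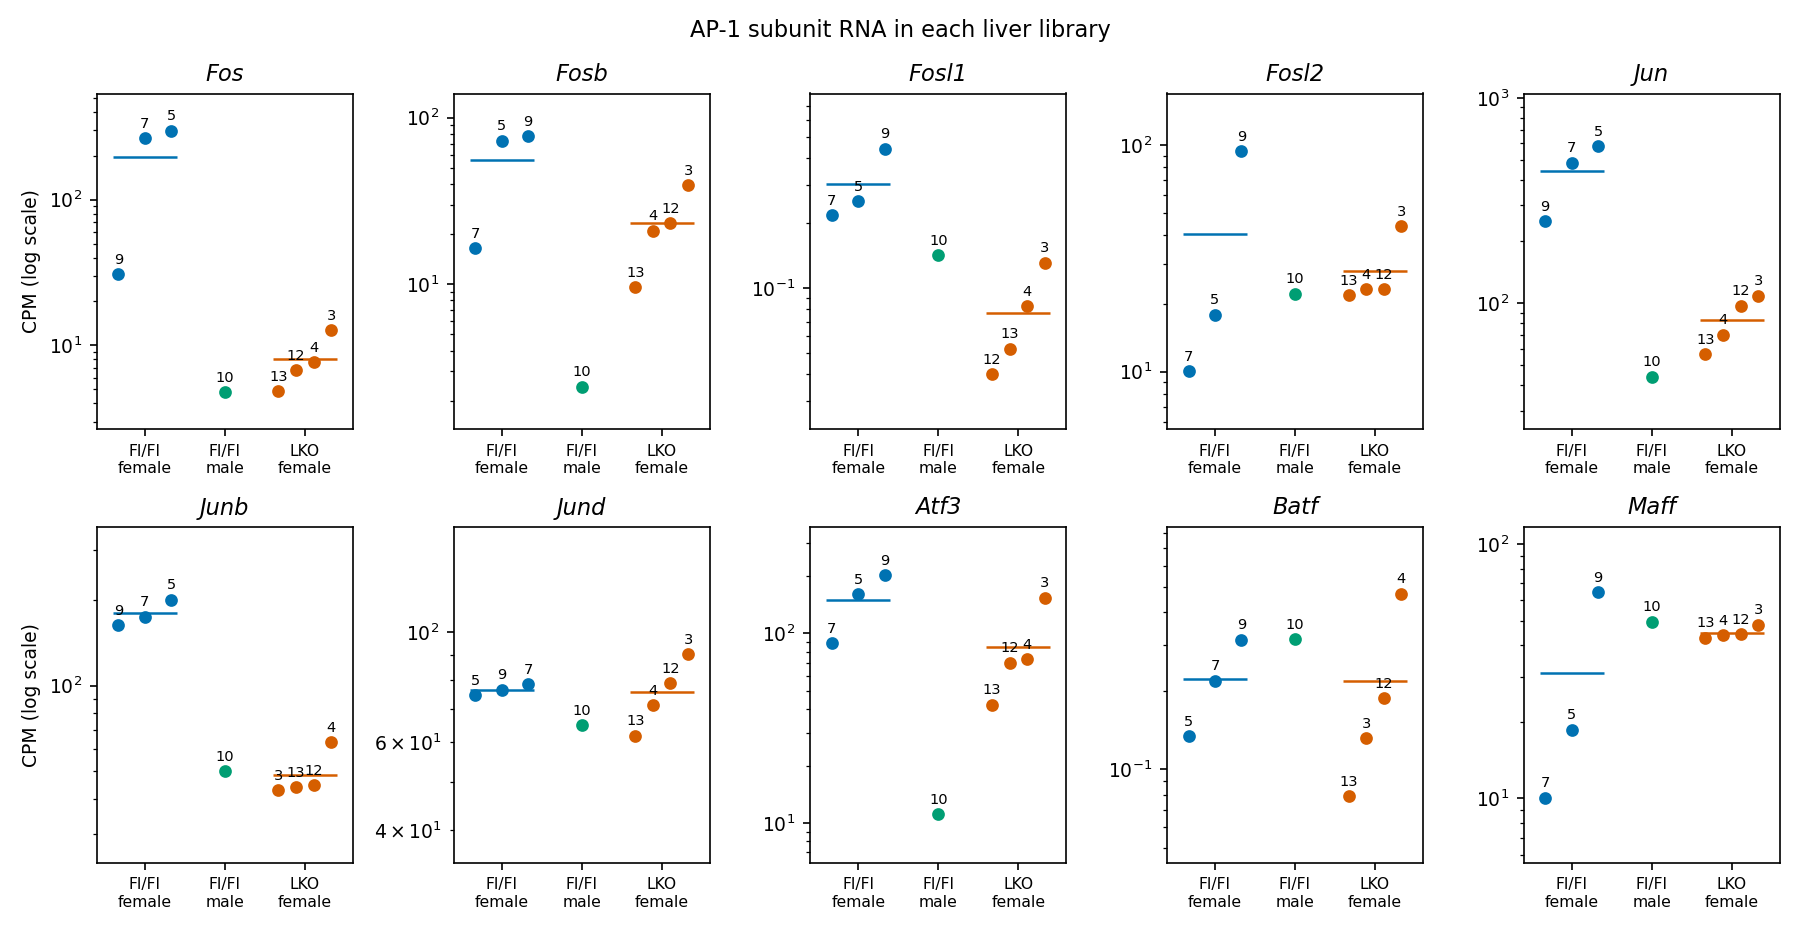
CPM of each AP-1 subunit (log scale, each panel with its own range) in the 3 female Fl/Fl libraries, the male Fl/Fl library and the 4 LKO libraries; points are libraries with their replicate numbers and horizontal lines are group means. Fos, Jun, Junb and Fosl1 of female Fl/Fl lie above every LKO library, Jund lies at 61.8 to 90.3 CPM in all 8, and Fl/Fl 9 is the highest library for Fosl2 and Maff, where Fl/Fl 7 is the lowest.

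Among the Jun family, Junb and Jun RNA was lower in LKO and Jund was not. Junb (ENSMUSG00000052837, chromosome 8, 84974484 to 84978718, minus strand, mm10), a Jun protein that activates transcription less strongly than Jun and can restrain it, was at 200.3, 174.5 and 163 CPM in Fl/Fl 5, 7 and 9. It was at 43.0, 63.2, 44.7 and 44.0 CPM in LKO 3, 4, 12 and 13, and at 49.9 CPM in the male Fl/Fl library. All 3 female Fl/Fl libraries stood close together and above all LKO libraries, the lowest of them 2.58-fold over the highest LKO library, while the male control stood inside the LKO range. The contrast was -1.88 ± 0.14 on the log2 scale (standard error, adjusted p = 0.00127), and Junb kept its call whichever of the 8 libraries was left out. With no sex term, so that the male library counts as a control like the others, it was -1.59 with an adjusted p of 0.451, the highest of its alternatives. Junb shares 351 bases with Prdx2 on the opposite strand, a gene with 5668 to 6797 reads per library against 3262 to 15004 for Junb. No source used here gives the strand setting of the counting, so reads of the shared bases cannot be told apart.

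Jun (ENSMUSG00000052684, chromosome 4, 95049034 to 95052222, minus strand), the strongest activator of the family, was at 584, 484 and 251 CPM in Fl/Fl 5, 7 and 9. It was at 109, 70.2, 97.5 and 56.4 CPM in LKO 3, 4, 12 and 13, and at 43.9 CPM in the male library, below all others. The female groups did not overlap, and Fl/Fl 9 stood nearer to LKO than Fl/Fl 5 and 7 did. The contrast was -2.40 ± 0.35 on the log2 scale (adjusted p = 0.0369). That call rests on several single libraries: the adjusted p was 0.130 without Fl/Fl 5 or without Fl/Fl 7, 0.0640 without LKO 3, 0.133 without LKO 4, 0.0777 without LKO 12 and 0.0680 without LKO 13, with a log2 value between -2.14 and -2.56 in these fits. Without both Fl/Fl 5 and 7 the value was -1.60 (adjusted p = 0.231), which assumes that the lone female control varies like the other groups, and with no sex term it was -2.03 (adjusted p = 0.601). Junos, an antisense RNA that shares 689 bases with Jun, had 22 to 32 reads per library. Jund (ENSMUSG00000071076, chromosome 8, 70698949 to 70700616), the member that is made steadily in resting cells, was at 74.6, 78.4 and 76.5 CPM in female Fl/Fl, at 64.99 CPM in the male library and at 90.3, 71.3, 78.8 and 61.8 CPM in LKO. The groups overlapped fully, and the contrast of -0.02 ± 0.12 changed sign with no sex term (0.037), without LKO 4 (0.0099) and without LKO 13 (0.061).

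Of the Fos family, Fos had the widest range over the 8 libraries and within female Fl/Fl and the largest difference in fitted level, while within LKO its range of 2.62-fold was below that of Fosb (4.08-fold) and Fosl1 (3.29-fold). Fos (ENSMUSG00000021250, chromosome 12, 85473890 to 85477273, plus strand), the classic immediate early partner of Jun, was at 298, 264.5 and 30.7 CPM in Fl/Fl 5, 7 and 9. It was at 12.7, 7.64, 6.76 and 4.865 CPM in LKO 3, 4, 12 and 13, and at 4.78 CPM in the male library. Every female Fl/Fl library was above every LKO library, yet Fl/Fl 5 and 7 were 9.70-fold and 8.63-fold over Fl/Fl 9, which itself was 3.83-fold over the LKO mean. Such a range within female Fl/Fl was exceeded by 0.219% of the 12337 genes with a mean of at least 1 CPM, against a median range of 1.23-fold. The contrast was -4.63 ± 0.88 on the log2 scale and did not pass the threshold (adjusted p = 0.0917). It passed without Fl/Fl 9 (-5.14, adjusted p = 0.00517), with DESeq2 (-4.63, adjusted p = 7.33e-07) and with limma voom (-4.16, adjusted p = 0.0474), and without Fl/Fl 5 and 7 the value was -1.95 (adjusted p = 0.267). Over all alternatives its adjusted p ran from 7.33e-07 to 0.551.

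The other Fos relatives did not pass the threshold. Fosb (ENSMUSG00000003545, chromosome 7, 19302696 to 19310051), another inducible Fos protein, gave 72.9, 16.4 and 77.7 CPM in Fl/Fl 5, 7 and 9, 2.42 CPM in the male library and 39.2, 20.9, 23.2 and 9.61 CPM in LKO. Fl/Fl 7 lay inside the LKO range, and the contrast was -1.26 ± 0.69 (adjusted p = 0.445). Fosl2 (ENSMUSG00000029135, chromosome 5, 32135801 to 32157842), the Fos relative also called Fra-2, was at 17.9, 10.03 and 93.9 CPM in female Fl/Fl, at 22.1 CPM in the male library and at 43.8, 23.2, 23.2 and 21.7 CPM in LKO. Fl/Fl 9 was 5.26-fold and 9.37-fold over Fl/Fl 5 and 7, the reverse of the order for Fos, and the sign of the contrast (-0.54 ± 0.83, adjusted p = 0.817) turned without Fl/Fl 9 (1.00) and with limma voom (0.063). Fosl1 (ENSMUSG00000024912, chromosome 19, 5447703 to 5455945), also called Fra-1, was nearly silent, at 19, 17 and 34 reads in Fl/Fl 5, 7 and 9, 10 in the male library and 10, 6, 3 and 4 in LKO. Its groups did not overlap (-1.97 ± 0.55, adjusted p = 0.112), but LKO 12 was at the floor of 3 reads and the other LKO libraries were near it.

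Atf3, Batf and Maff overlapped between the genotypes. Atf3 (ENSMUSG00000026628, chromosome 1, 191170296 to 191218039, minus strand), a stress-induced factor that often represses its targets, was at 161, 88.6 and 202 CPM in Fl/Fl 5, 7 and 9. It was at 154, 73.2, 70.1 and 42.0 CPM in LKO 3, 4, 12 and 13, and at 11.1 CPM in the male library. LKO 3 lay within the female Fl/Fl range and the other LKO libraries below it, and the contrast was -0.83 ± 0.51 (adjusted p = 0.497). The male library stood 13.6-fold below the female Fl/Fl mean for Atf3, 41.4-fold for Fos, 23.0-fold for Fosb and 10.02-fold for Jun. With 1 male library, sex and this animal cannot be told apart.

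Maff (ENSMUSG00000042622, chromosome 15, 79346621 to 79359076, plus strand), a small Maf protein that lacks an activation domain, was at 18.6, 10.05 and 64.8 CPM in Fl/Fl 5, 7 and 9. It was at 48.1, 43.9, 44.2 and 42.7 CPM in LKO and at 49.5 CPM in the male library. The LKO libraries spanned 1.13-fold and lay between Fl/Fl 5 and Fl/Fl 9, while female Fl/Fl spanned 6.45-fold, a range wider in 0.430% of genes. The contrast was 0.52 ± 0.64 (adjusted p = 0.759). It was 1.64 (adjusted p = 0.0108) without Fl/Fl 9 and -0.54 (adjusted p = 0.181) without Fl/Fl 5 and 7, so its direction rests on which Fl/Fl libraries are used. Batf (ENSMUSG00000034266, chromosome 12, 85686669 to 85709087), a lymphoid partner of Jun proteins, had 6 to 34 reads per library. Its contrast of -0.04 ± 0.62 (adjusted p = 0.984) became positive without Fl/Fl 9 (0.29) and without LKO 3, 12 or 13 (0.13, 0.028 and 0.23).

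**Figure D2:**
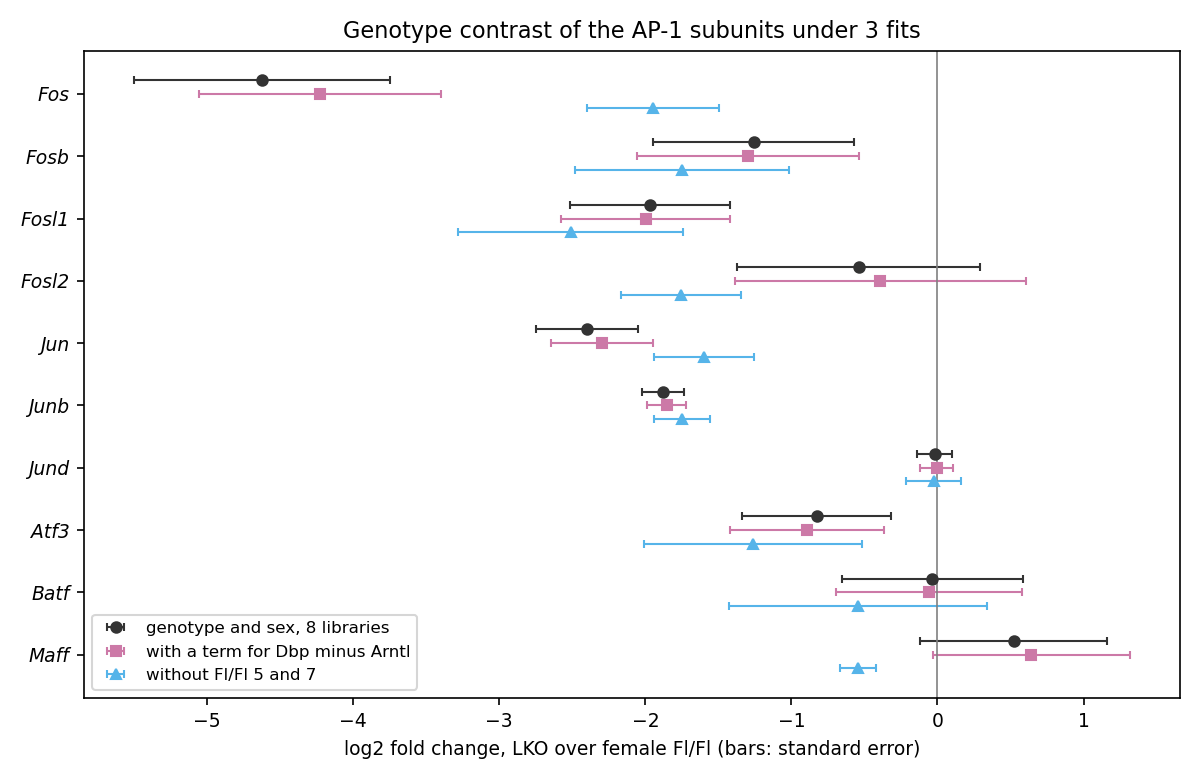
log2 fold change of LKO over female Fl/Fl with its standard error for each subunit, in the fit with genotype and sex, in a fit with a further term for the clock genes Dbp and Arntl, and without Fl/Fl 5 and 7. Junb stays between -1.75 and -1.88, Fos moves from -4.63 to -1.95 without Fl/Fl 5 and 7, and Maff changes sign.

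Over the 10 genes, 2 were called lower (Junb and Jun), 0 were called higher and 8 were not past the threshold, beside the 0.396% and 1.02% of all tested genes given above. The single-gene values were negative for 9 and positive for 1, with a median of -1.04 against -0.0032 over all tested genes. Groups did not overlap for 4 (Fos, Fosl1, Jun and Junb, all lower in LKO) and overlapped for 6. Among all tested genes, 6.22% did not overlap with LKO lower and 8.85% did not overlap with LKO higher. Since the set was chosen with this contrast known, nothing is read from these shares. In the authors' deposited table, which sets LKO against all 4 Fl/Fl libraries, 0.151% of listed genes were lower at an adjusted p under 0.05. In that authors' deposited table Fos (-4.22, adjusted p = 0.0194) and Junb (-1.60, adjusted p = 0.0359) were among them and Jun (-2.03, adjusted p = 0.196) was not.

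The libraries did not rank alike across the subunits. Fl/Fl 5 was the highest of the 8 libraries for Fos, Jun and Junb, and Fl/Fl 9 for 5 genes: Fosb, Fosl1, Fosl2, Atf3 and Maff. Fl/Fl 7 was the lowest library for Fosl2 and Maff, and the male library was the lowest for 4 genes, Fos, Fosb, Jun and Atf3. Within LKO, replicate 3 was the highest for 8 genes and replicate 13 the lowest for 8. LKO 3 stood 1.98-fold over the mean of the other LKO libraries for Fos, 2.19-fold for Fosb, 1.93-fold for Fosl2, 2.50-fold for Atf3 and 1.46-fold for Jun, but 0.848-fold for Junb.

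The make-up of AP-1 RNA differed between libraries in amount and in kind. Summed over the 10 genes, the authors' FPKM values came to 557, 451.0 and 365 in Fl/Fl 5, 7 and 9, to 108.0 in the male library and to 222, 158, 161 and 120.5 in LKO 3, 4, 12 and 13. The Fos family made up 26.1%, 26.7% and 10.1% of that sum in female Fl/Fl, 4.62% in the male library and 5.08% to 7.63% in LKO. Within the Fos family, Fos itself was 90.2% and 96.7% in Fl/Fl 5 and 7. In Fl/Fl 9 it was 36.8%, and in LKO 31.9% to 35.9%. By that share Fl/Fl 9 stood beside LKO, although its Fos family sum of 37.0 FPKM was above the 6.12 to 16.9 FPKM of LKO. Within the Jun family, Jund was 14.2%, 17.1% and 23.5% in female Fl/Fl, 52.4% in the male library and 46.3% to 50.6% in LKO, so the steadily made member was the largest single part of Jun family RNA in every LKO library. The ratio of Fos family to Jun family RNA was 0.445, 0.423 and 0.182 in female Fl/Fl, 0.0643 in the male library and 0.0796 to 0.152 in LKO. These are ratios of RNA, and protein was not measured.

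**Figure D3:**
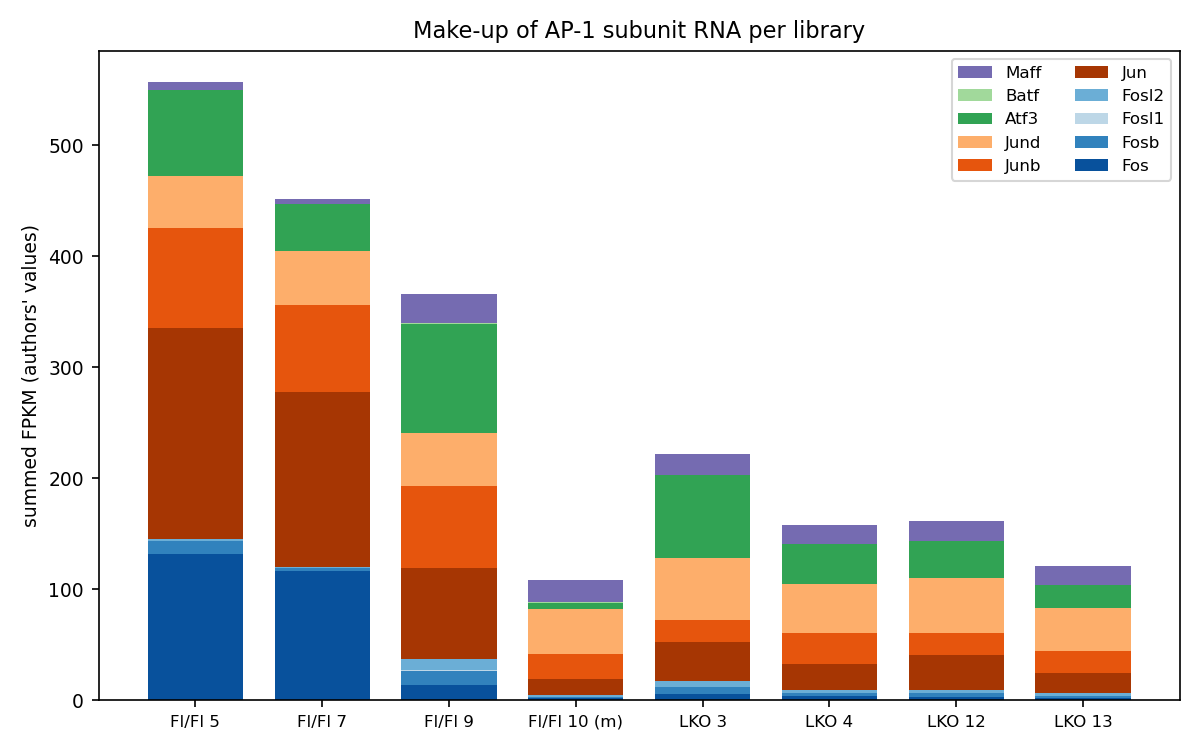
Stacked bars of the authors' FPKM values of the 10 subunits in each library (m, male), with Fos family genes in blue, Jun family genes in orange to brown, Atf3 and Batf in green and Maff in purple. The sum is 365 to 557 in female Fl/Fl and 120.5 to 222 in LKO, the dark blue Fos segment is large in Fl/Fl 5 and 7 only, and the light orange Jund segment is of similar height in all 8.

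The range of Fos among the female controls followed a split that was also seen in clock genes. Arntl, the core activator of the circadian clock, was measured at 39.7 and 29.5 CPM for Fl/Fl 5 and 7, and at 30.3 and 26.6 CPM for LKO 3 and 4. It was at 8.52 CPM in Fl/Fl 9, 3.98 CPM in the male library and 5.32 and 8.31 CPM in LKO 12 and 13. Dbp, a clock output gene, went the other way, at 0.606 to 3.50 CPM in the first 4 libraries and 26.9 to 54.4 CPM in the others. The split crosses the genotypes, so each side holds Fl/Fl and LKO libraries. On the side of high Arntl, Junb was at 200.3 and 174.5 CPM in Fl/Fl against 43.0 and 63.2 CPM in LKO, Jun at 584 and 484 against 109 and 70.2 CPM, and Fos at 298 and 264.5 against 12.7 and 7.64 CPM. On the side of low Arntl, the female values were 163 against 44.7 and 44.0 CPM for Junb, 251 against 97.5 and 56.4 CPM for Jun, and 30.7 against 6.76 and 4.865 CPM for Fos. That all 3 genes were higher in Fl/Fl females on both sides follows from their groups not overlapping, so it is no separate check. The second side holds 1 female control. Maff and Fosl2 were higher in LKO on the first side (43.9 to 48.1 against 10.05 to 18.6 CPM, and 23.2 to 43.8 against 10.03 to 17.9 CPM) and lower in LKO on the second (42.7 to 44.2 against 64.8 CPM, and 21.7 to 23.2 against 93.9 CPM), a difference that was not tested. With a term for log2 Dbp minus log2 Arntl added to the fit, an alternative chosen after seeing the data, the contrast was -1.85 (adjusted p = 0.00086) for Junb, -2.30 (adjusted p = 0.0493) for Jun and -4.23 (adjusted p = 0.111) for Fos. In that fit Jun and Junb again were the 2 subunits past the threshold.

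**Figure D4:**
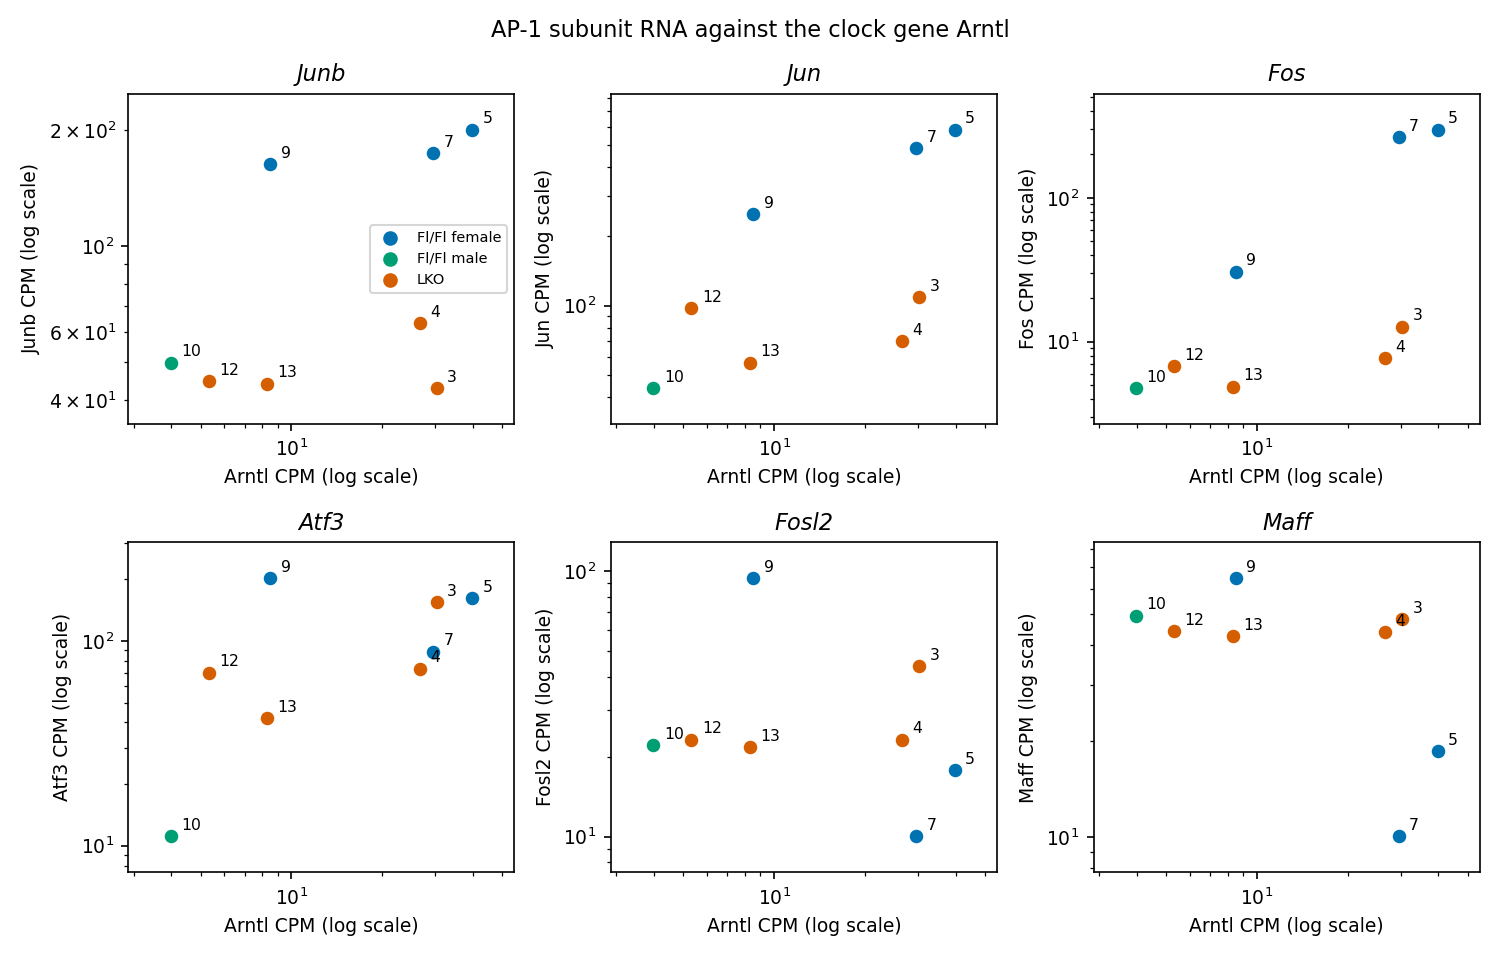
CPM of 6 AP-1 subunits against CPM of Arntl (both on log scales) in the 8 libraries, with replicate numbers. Fl/Fl 5 and 7 and LKO 3 and 4 lie at 26.6 CPM of Arntl or above and the others at 8.52 CPM or below; Junb, Jun and Fos of female Fl/Fl lie above LKO on both sides, and Maff and Fosl2 of female Fl/Fl lie below LKO on the right and above it on the left.

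The promoters of 6 inducible members are shown, since short elements known to respond to signals can be read in them and the values above concern RNA of these genes. Windows of 250 bases before each RefSeq start (build GRCm38.p6) were found for 9 of the 10 genes (not Fosl1), at 11 starts, and were searched on both strands. The core TGACG of the cyclic AMP response element, which ATF, CREB and Jun proteins can bind, was in 6 of the 9 genes (Fos, Fosb, Junb, Atf3, Batf and Maff). By window, it was in 7 of the 11 and in 17.8% of 32851 promoter windows of the same length. The whole element TGACGTCA, which contains that core on both strands, was in Maff and in 1.55% of windows. TGACATCA, the variant known from the Jun gene, was in Jun and at another start of Maff and in 2.93% of windows. TATAAA was in Fos (12.4% of windows), and neither the AP-1 site TGANTCA (6.75%) nor the CArG box (1.47%) was in any window of the 9 genes. A match describes letters only, and bases farther than 250 before the start were not searched. Absence therefore holds for these windows only. The 150 bases before the start follow, 5′ to 3′ on the gene's strand, with the matched letters in capitals: Fos at chr12:85473740-85473889 (plus), Fosb at chr7:19310046-19310195 (minus), Jun at chr4:95052223-95052372 (minus), Junb at chr8:84978749-84978898 (minus), Atf3 at chr1:191183334-191183483 (minus, a start inside the gene) and Maff at chr15:79347370-79347519 (plus, the second of 3 starts).
Fos promoter: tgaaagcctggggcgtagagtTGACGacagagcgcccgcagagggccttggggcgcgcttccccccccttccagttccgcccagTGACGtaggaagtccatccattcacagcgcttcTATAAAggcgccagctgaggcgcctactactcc
Fosb promoter: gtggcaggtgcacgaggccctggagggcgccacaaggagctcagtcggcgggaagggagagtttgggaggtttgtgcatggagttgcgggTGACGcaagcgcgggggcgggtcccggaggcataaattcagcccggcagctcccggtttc
Jun promoter: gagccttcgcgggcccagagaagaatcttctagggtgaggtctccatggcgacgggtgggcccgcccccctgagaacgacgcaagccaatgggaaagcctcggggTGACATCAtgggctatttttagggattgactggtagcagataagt
Junb promoter: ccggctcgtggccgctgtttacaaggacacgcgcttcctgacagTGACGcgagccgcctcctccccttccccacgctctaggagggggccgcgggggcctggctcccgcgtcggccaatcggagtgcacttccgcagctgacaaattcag
Atf3 promoter: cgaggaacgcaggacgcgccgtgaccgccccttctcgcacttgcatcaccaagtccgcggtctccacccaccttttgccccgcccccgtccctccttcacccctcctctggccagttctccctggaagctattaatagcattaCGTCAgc
Maff promoter: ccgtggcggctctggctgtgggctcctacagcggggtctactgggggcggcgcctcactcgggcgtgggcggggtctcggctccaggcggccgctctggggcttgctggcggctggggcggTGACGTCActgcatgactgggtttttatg
In Fos that core stands at 66 to 62 and 129 to 125 bases before the start and TATAAA at 33 to 28. In Junb that core stands at 106 to 102 bases, in Fosb at 60 to 56 and in Atf3 at 7 to 3 bases. The variant of Jun stands at 45 to 38 bases, the same distance as at the other start of Maff.

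Some of the transcripts are dense in a feature known from short-lived RNA and others are not, and RNA lifetime was not measured. By GENCODE M21, Jun, Junb and Jund have 1 exon each, as do 2.44% of 13675 tested protein-coding genes, and the other 7 have 3 or 4 exons. The pentamer ATTTA, the core of AU-rich elements that mark mRNA for decay, occurred in the 3′ untranslated region 4.91 times per kilobase in Fos, 4.12 in Junb, 3.28 in Maff, 3.24 in Jun and 2.53 in Atf3, against a median of 1.29 over 12788 genes. A denser count was found in 6.65% of these genes for Fos and in 10.4% for Junb. The count was 1.88 per kilobase in Jund, 1.72 in Fosl2, 1.57 in Fosl1, 0.466 in Fosb and 0 in Batf. Denser counts were found in 37.8% to 43.9% of genes for Jund, Fosl2 and Fosl1, in 66.4% for Fosb and in 68.2% for Batf. The nonamer TTATTTATT, which contains the pentamer, was in Fos, Fosl2 and Maff and in 7.28% of genes. The 30 bases of the region that hold the most pentamers are shown for Fos, Jun and Junb, which have the most negative contrasts among the members that average 1 CPM or more, and for Maff, with ATTTA in capitals: Fos at chr12:85477100-85477129, Jun at chr4:95049208-95049237, Junb at chr8:84977127-84977156 and Maff at chr15:79358894-79358923 (mm10).
Fos 3′ end: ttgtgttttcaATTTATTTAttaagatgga
Jun 3′ end: gatcATTTAtaatcataggaaagATTTAgt
Junb 3′ end: aatatatttgtgtATTTAacagggagggga
Maff 3′ end: aaatcacATTTAatcttatATTTAgggaga
In these stretches Fos joins 2 pentamers with a shared A, Jun and Maff hold 2 apart, and Junb holds 1. Between stretches with equally many pentamers, the one with its pentamers nearest the middle was taken. The 2 nonamers of Maff lie outside the stretch shown, so the stretches do not rank the genes.

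Of the genes that act on AP-1, few passed the test: 1 gene rose in each of 3 lists, where 1.02% of all tested genes were called higher. Among kinases that lead to AP-1, 1 of 29 rose and 0 fell (median 0.12, and -0.03 without Fl/Fl 5 and 7): Map2k6, which activates p38, was 2.68-fold higher (14.8 ± 2.28 against 5.53 ± 0.625 CPM, adjusted p = 0.00554). Map2k2, a kinase upstream of ERK (0.28, adjusted p = 0.123), and Mapk8, which encodes the kinase JNK1 that phosphorylates Jun (-0.32, adjusted p = 0.148), followed. Among phosphatases that switch MAP kinases off, 1 of 10 rose and 0 fell (median -0.15, but -0.69 without Fl/Fl 5 and 7 and 0.27 when Fl/Fl 9 was left out): Dusp16, which acts on JNK, went from 60.8 ± 5.74 to 86.5 ± 8.79 CPM (log2 0.51 ± 0.11, adjusted p = 0.0480). None of 17 activators of AP-1 genes passed by edgeR (median -0.03), led by Mkl1 (0.37, adjusted p = 0.173) and Mkl2 (0.42, adjusted p = 0.204), coactivators of serum response factor, and Atf2, a partner of Jun proteins (-0.29, adjusted p = 0.208). Of 18 genes of AU-rich mRNA decay, 1 rose and 0 fell (median -0.12): Tob2, an adaptor of deadenylation, went from 94.0 ± 1.68 to 133.5 ± 17.97 CPM (log2 0.51 ± 0.11, adjusted p = 0.0484). The decay factor Zfp36, itself an immediate early gene, gave 624, 527 and 166 CPM in Fl/Fl 5, 7 and 9, against 162 to 207 CPM in LKO (-1.26, adjusted p = 0.236), an order of the control libraries like that of Fos. None of 12 genes of AP-1 protein turnover passed (median -0.0005), with Nedd4, a ubiquitin ligase, at -0.20 (adjusted p = 0.257). Of the 3 calls, Map2k6 passed whichever of the 8 libraries was left out. Dusp16 passed only without Fl/Fl 9 or LKO 12, and Tob2 only without Fl/Fl 9, with adjusted p-values of up to 0.214 for both with another library left out. With no sex term all 3 calls were lost (adjusted p = 0.0576 for Map2k6, 0.425 for Dusp16 and 0.307 for Tob2). Dusp16 did not pass with RLE scaling (adjusted p = 0.0515) or limma voom (0.0546), nor did Tob2 with RLE scaling (0.0526), upper quartile scaling (0.0535) or limma voom (0.0568). Without LKO 3, Dusp6 of the phosphatases, which acts on ERK, was called lower and Dusp16 was not.

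Among genes known as AP-1 targets, 3 of 29 tested were lower in LKO, 0 were higher and 26 were not past the threshold, beside 0.396% of all tested genes called lower. F3, tissue factor, which starts coagulation, went from 3.12, 3.67 and 4.34 CPM in Fl/Fl 5, 7 and 9 to 1.53, 1.06, 1.64 and 1.60 CPM in LKO (log2 -1.34 ± 0.21, adjusted p = 0.0175). Hbegf, a ligand of the EGF receptor, went from 2.91, 3.86 and 4.19 CPM to 1.83, 1.91, 1.75 and 1.54 CPM (log2 -1.06 ± 0.19, adjusted p = 0.0315). Cxcl1, a chemokine that attracts neutrophils, went from 4.59, 10.1 and 6.81 CPM to 2.50, 0.856, 1.38 and 1.27 CPM (log2 -2.25 ± 0.38, adjusted p = 0.0322). For all 3 genes the female groups did not overlap, as for 6.22% of all tested genes with LKO lower, and the male library was at 1.34, 0.513 and 2.25 CPM, within the LKO range for F3 and Cxcl1 and below it for Hbegf. The calls rest on single libraries: F3 did not pass without Fl/Fl 5, Fl/Fl 7, LKO 4 or LKO 13, Hbegf passed only without Fl/Fl 9 or Fl/Fl 10, and Cxcl1 only without Fl/Fl 9, Fl/Fl 10 or LKO 3, with adjusted p-values of up to 0.0707, 0.107 and 0.0985. Without both Fl/Fl 5 and 7 the log2 values were -1.58, -1.26 and -2.19, and 0 of the 3 passed. With no sex term 0 genes of the list were called, and the adjusted p was 0.451 for F3, 0.747 for Hbegf and 0.406 for Cxcl1. With no filter beyond 1 read Cxcl1 did not pass (adjusted p = 0.0646), and with DESeq2 7 targets were called lower. The list's values were negative for 21 of 29 with a median of -0.25, against -0.0032 over all tested genes. That median ran from -0.12 with no sex term to -0.44 without Fl/Fl 5 and 7. This list, like the others here, was chosen with earlier results of these data known, so nothing is read from its shares or median. Some genes of the list were not tested: Mmp3, Mmp13, Timp1, Areg, Lif and Tnf had too few reads, and Mmp10 was not among the 27110 listed genes.

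Immediate early genes outside AP-1 gave 0 calls among 25 tested by edgeR, with 21 negative values and a median of -0.78. Those with the smallest p were Klf2, a flow-responsive factor (-0.78, adjusted p = 0.0687), Cyr61, a matrix protein (-2.23, adjusted p = 0.0920), and Egr1, a zinc finger factor (-2.90, adjusted p = 0.0945). None of 8 heat shock genes passed (8 negative, median -0.43), led by Hspa1a, an inducible chaperone (-2.69, adjusted p = 0.137). None of 13 clock genes passed (median 0.19, and -0.04 with no sex term), led by Ciart, a clock repressor (1.63, adjusted p = 0.148). Without Fl/Fl 9, 5 of the immediate early genes were called lower (Cyr61, Egr1, Ier2, Socs3 and Zfp36, median -0.62), and without Fl/Fl 5 and 7 only Socs3 was (median -0.68). The heat shock median was -0.67 and 0.05 in these 2 fits. Over all genes, 1514 higher and 1126 lower values had an unadjusted p under 0.05 in the fit with genotype and sex, and with DESeq2 9 immediate early genes were called lower and 1 higher, beside 1 heat shock gene lower and 1 clock gene higher.

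**Figure D5:**
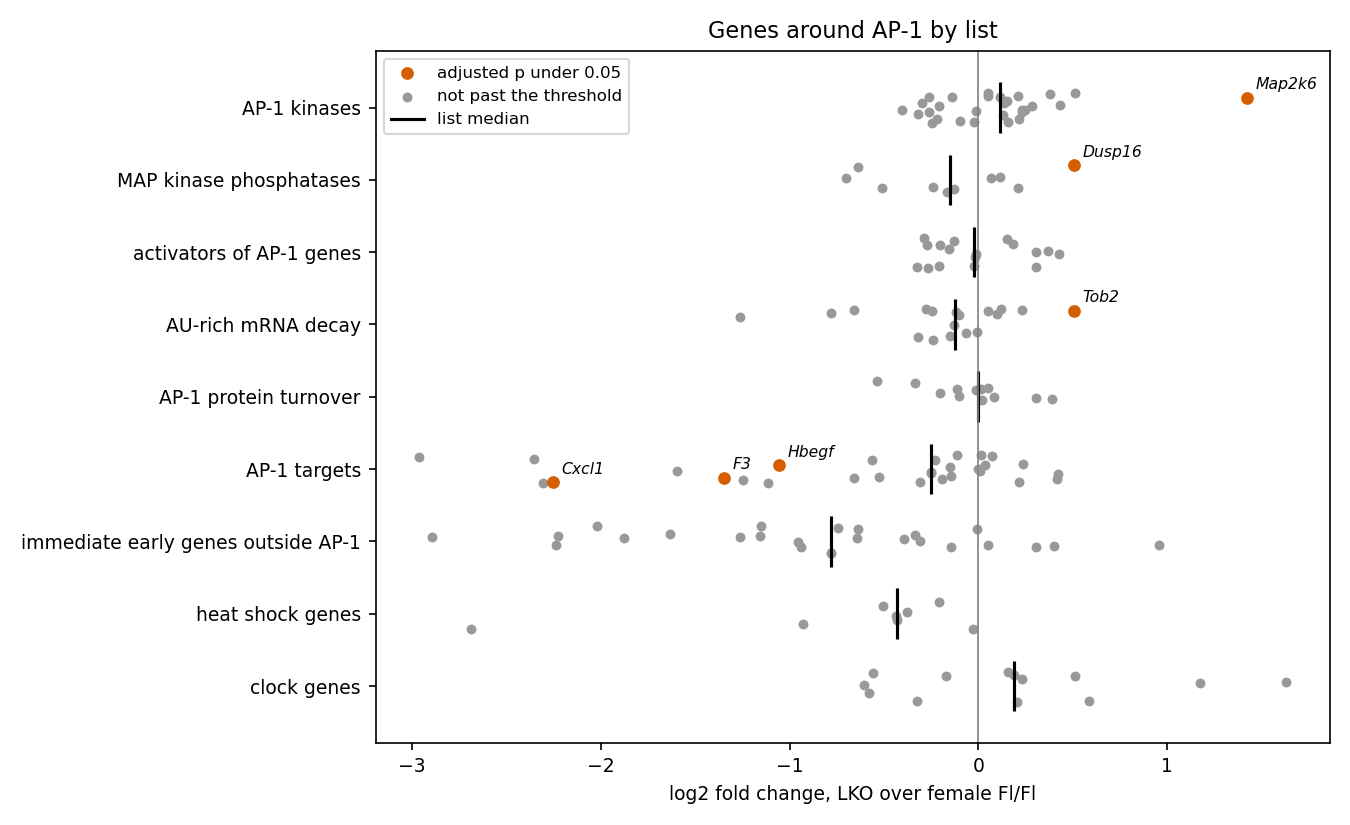
log2 fold change of LKO over female Fl/Fl for the tested genes of 9 lists around AP-1; points are genes, orange points passed an adjusted p of 0.05 and black bars are list medians. The 3 lists of lowest median lie to the left, AP-1 targets at a median of -0.25, immediate early genes outside AP-1 at -0.78 and heat shock genes at -0.43. Medians of the others lie between -0.15 (MAP kinase phosphatases) and 0.19 (clock genes).

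The genes most alike to the members were found by Pearson's r of log2 CPM over the 8 libraries among 11551 tested genes with a mean of at least 1 CPM, with predicted genes, genes named only by a clone and the members left out. These r are descriptions over 8 points that share the groups and the clock split, and many genes reach high values over so few points. For Fos they were Egr1 (r = 0.988, Spearman's rho 0.833) and Ier2 (0.988, rho 0.976), both immediate early genes, then Zfp398, Med23 and Tlr3 (0.971 to 0.974). Without Fl/Fl 5 and 7, the libraries farthest from the median of Fos, r was 0.935 for Egr1 and 0.967 for Ier2 but 0.771 to 0.819 for the other 3. For Jun they were Cyr61 (0.987) and Ier2 (0.983), then Depdc7, Fhod1 and Sp4, and all 5 kept 0.907 to 0.979 without the same 2 libraries. Junb had another set: Dact2 (0.980, an inhibitor of TGF-beta and Wnt signals), Tra2b, Cnot2, Phc3 and Cldn1 (0.961 to 0.973), with r of 0.916 to 0.976 without the 2 libraries. Tra2b moved little, between 40.0 and 44.6 CPM, since r measures the pattern and not the size of a difference. For Atf3 they included Greb1l (0.993), Epn2, Zfp36l1 and Notch1 (0.970 to 0.971), with 0.857 to 0.967 without the male library and Fl/Fl 9. Zfp36l1, a decay factor of AU-rich mRNA, was at 36.0 CPM in the male library, where Atf3 was lowest too.

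Markers of the cells that could bring AP-1 RNA into bulk liver were set beside these results, and none of the tested markers in 9 lists was past the threshold. Over the lists, Kupffer cell and macrophage markers (6 of 6 tested) summed to 292 to 432 CPM in female Fl/Fl and 329 to 409 CPM in LKO. Neutrophil markers (3 of 6 tested) summed to 6.87 to 18.3 against 9.09 to 15.8 CPM, with Mpo at 0 to 3 reads per library. Sums for T and NK cells (5 of 6 tested) were 2.17 to 4.10 against 2.04 to 4.78 CPM, and for B cells (5 of 5) 4.31 to 4.81 against 2.01 to 4.70 CPM. Endothelial markers (6 of 6) summed to 241 to 308 against 250.3 to 287 CPM, stellate cell markers (6 of 6) to 166.5 to 190 against 143 to 182 CPM, and erythroid markers (5 of 5) to 53.7 to 90.4 against 52.6 to 73.3 CPM. Fl/Fl 9, the highest library for Fosl2, Maff, Fosb, Atf3 and Fosl1, was also the highest of the 8 for the hepatocyte, macrophage, neutrophil, endothelial and stellate sums. The male library was the lowest of the 8 for Fos, Fosb, Jun and Atf3 but not for the other subunits. It was also the lowest for the hepatocyte, B cell, endothelial and stellate sums. It was the highest for the erythroid sum at 197.5 CPM, of which Alas2 gave 122.5 CPM. Its low hepatocyte sum came with Alb (55810 CPM) and Ttr (4038 CPM), both lowest there. Apoa1 (6949 CPM), Serpina1a (1675 CPM) and Hnf4a (952 CPM) were instead at their highest of the 8 libraries there. The part of these differences in the results was not tested.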

How the data were processed

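Total RNA of 8 mouse livers was extracted with a column kit and made into libraries with the NEBNext Ultra RNA kit, per the labels' protocols. The build was mm10, and the tools named are STAR and fastp, HTSeq and featureCounts, and edgeR, DESeq and DESeq2, per the submitters' processing notes, which give no roles. Annotation release and strand setting: not given in the sources used here.

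In all, the authors deposited 1 table of 27110 genes with whole-number read counts per library. The same table holds a normalised signal that the authors made by dividing the counts by 1 size factor per library (not used here), FPKM values that the authors made from counts and gene length, and the authors' log2 fold change with its p-value and adjusted p-value. Every column of sample values was mapped.

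Groups and sexes came from the labels. Counts were tested in R 4.3.3 with edgeR 4.0.16: filterByExpr (16420 genes), TMM scaling, and the robust quasi-likelihood F test with terms for genotype and sex over 8 libraries. The biological coefficient of variation was 20.4%. Because 1 library is male, the sex term fits it alone and the contrast is that of 7 female libraries. Two-sided p-values were adjusted by Benjamini-Hochberg over all tested genes, with a threshold of 0.05, and a standard error is the log2 value over the root of F. Library sizes after TMM were used for CPM. The procedure was tested on simulated counts with the same dispersion for all genes and no sex or clock difference. That simulation does not cover genes as variable between controls as Fos. The correlations used log2 CPM with a prior count of 2.

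The members, the gene lists, the tests and the rule for named genes were chosen with earlier results of these data known. The rule names all members, Pkd1l1, Dbp, Arntl and the markers. It names up to 5 genes past the threshold of each list, or otherwise those of smallest p, up to 3 in all, and the 5 genes most like Fos, Jun, Junb and Atf3, but some genes and 1 list of AP-1 relatives are not reported here. Zfp36, Zfp36l1 as a decay factor, Socs3 and the untested AP-1 targets were named after their values were seen.

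Alternatives were DESeq2 1.42.0 and voom of limma 3.58.1, a fit without a sex term, upper quartile or RLE scaling, no filter beyond 1 read or a filter of 10 reads in 4 libraries, an adjusted p of 0.01, each library left out in turn, and Fl/Fl 5 and 7 left out together. The term for Dbp minus Arntl was added after seeing the data. Promoter sequences are from RefSeq (GRCm38.p6), and transcripts and 3′ ends from GENCODE M21 (mm10), with the transcript of longest coding sequence per gene.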

Additional observations from a re-analysis of the deposited data

Results flagged for a closer look

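In 3 of 20 groups of 4 libraries tested, 1 for each member and genotype, a single library stood far from the other 3. The cutoff would flag about 1 in 20 if the 4 values were normal and alike. The groups share the same libraries and Fl/Fl mixes the sexes, so the count of 3 cannot be set against that share. Fosl2 in LKO was at 43.8 CPM in LKO 3, against 21.7 to 23.2 CPM in the other LKO libraries. Junb in LKO was at 63.2 CPM in LKO 4, against 43.0 to 44.7 CPM in the other LKO libraries. Junb in Fl/Fl was at 49.9 CPM in the male library, Fl/Fl 10, against 163 to 200.3 CPM in the 3 female ones. The last value is the one that a sex term sets aside. Without LKO 4 the contrast of Junb was -2.03 (adjusted p = 8.07e-05).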

How the results depend on the processing

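The counts depend on the setting. Of all genes, 167 were called higher and 65 lower in LKO, with Jun and Junb as the 2 subunits called. At an adjusted p of 0.01 the counts were 14 and 4, with 1 subunit (Junb). With no sex term they were 1 and 0 by edgeR, with 0 subunits, where 654 higher and 663 lower values had an unadjusted p under 0.05. With no filter beyond 1 read they were 320 and 142, with 1 subunit. With DESeq2 they were 570 and 315, with 3 subunits (Fos, Jun and Junb). Without Fl/Fl 5 and 7 they were 8 and 18, with 1 subunit. Leaving out 1 library at a time gave 2 to 476 genes higher, 2 to 251 lower and 1 to 4 subunits. The lowest counts came without Fl/Fl 5 (2 and 2) and the highest without Fl/Fl 9 (476 and 251, with Fos, Jun, Junb and Maff called). Leaving out Fl/Fl 7 gave 25 and 12, LKO 4 gave 36 and 11, LKO 12 gave 111 and 30, and LKO 13 gave 44 and 14. Signs turned for values near 0 or resting on Fl/Fl 9: Fosl2 to 0.063 with limma voom and 1.00 without Fl/Fl 9, Maff to -0.54 without Fl/Fl 5 and 7, Jund to 0.037 with no sex term, 0.0099 without LKO 4 and 0.061 without LKO 13, and Batf to 0.29 without Fl/Fl 9 and 0.13, 0.028 and 0.23 without LKO 3, 12 and 13. With each library left out in turn, Fosl2 ran from -1.01 to 1.00, Jund from -0.12 to 0.061 and Batf from -0.73 to 0.29. Fos, Fosb, Fosl1, Jun, Junb and Atf3 kept a negative sign in all of these fits. The causes were not tested. No paired analysis was made, because the genotypes share no replicate number and the sources used here do not say whether animals were littermates. Depth limits Fosl1, Batf and Pkd1l1, which are within reach of the 3-read floor.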
